A study of Mus musculus with 6 samples.

Results

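The 9 circadian clock genes Clock, Per1, Per2, Per3, Cry1, Cry2, Nr1d1, Nr1d2 and Dbp were taken by symbol from the deposited counts of 35976 genes, and all 9 were found and passed the filter on low counts. The libraries were bulk RNA sequencing of amygdala cells, taken with a magnetic adult neuron kit from C57BL/6J males. An adeno-associated virus carried Cas9 under the GfaABC1D promoter, which is active in astrocytes, together with a guide for Egfr, which encodes the epidermal growth factor receptor (sgEgfr, 3 libraries), or a control guide for Rosa26 (sgRosa, 3 libraries). The treatment text that all samples share also names Rosa or Areg guides for microglia. Mice of both groups had more than 2 weeks of viral expression, and were then put through 7 days of restraint, fear conditioning on 1 day and extinction training on 3, so neither group is unstressed. Ages, the number of animals behind a library and the hour of tissue collection are not given in the sources used here.

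The circadian clock is a transcriptional loop that runs in nearly all cells, neurons and glia included. CLOCK, or its relative NPAS2, pairs with BMAL1 (the product of Arntl) and switches on the Per and Cry genes, whose proteins then shut that pair down. The same pair drives the nuclear receptor genes Nr1d1 and Nr1d2, which repress Arntl, and the output gene Dbp, so that transcripts of the Dbp, Nr1d and Per group peak at about the opposite time of day from those of Arntl and Npas2. Clock itself oscillates weakly in many tissues, and Per1 is also induced by neuronal activity and by glucocorticoids.

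The elements through which these proteins act were looked for in RefSeq promoter sequences of build GRCm38.p6, which held 8 of the 9 genes in 11 windows (Per2 was not matched). The search covered the 250 bases before each start site, on both strands. The E-box CACGTG is bound by the CLOCK and BMAL1 pair and was present in 6.02% of 32851 such windows in the genome. Its variant CACGTT, the E-prime box, was present in 3.85%. The D-box TTATGTAA or TTACGTAA, bound by DBP and its relatives TEF and HLF, was present in 0.931%. The elements TAGGTCA or TGGGTCA, bound by ROR and NR1D receptors, were present in 5.38%, and the cAMP response element TGACGTCA in 1.55%. Of the 8 genes, 5 had at least 1 of these. The share of all windows with any of these elements was not computed, so this count has no background beside it. The windows of Per1, Per3, Cry1 and Nr1d1 are shown because they hold the activator and output elements of the loop; capitals mark the elements, and AACGTG is the E-prime box read on the other strand.
Per1 (chr11:69098699-69098948, plus strand): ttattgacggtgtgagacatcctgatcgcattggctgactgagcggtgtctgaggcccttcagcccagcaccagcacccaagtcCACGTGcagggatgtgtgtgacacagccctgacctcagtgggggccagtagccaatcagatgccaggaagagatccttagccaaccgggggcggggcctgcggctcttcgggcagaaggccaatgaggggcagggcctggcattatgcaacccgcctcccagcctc
Per3 (chr4:151044666-151044915, minus strand): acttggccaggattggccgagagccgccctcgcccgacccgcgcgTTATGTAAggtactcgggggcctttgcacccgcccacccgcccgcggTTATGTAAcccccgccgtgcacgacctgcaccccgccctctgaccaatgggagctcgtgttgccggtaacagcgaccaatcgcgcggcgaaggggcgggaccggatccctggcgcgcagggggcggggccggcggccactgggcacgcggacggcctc
Cry1 (chr10:85185055-85185304, minus strand): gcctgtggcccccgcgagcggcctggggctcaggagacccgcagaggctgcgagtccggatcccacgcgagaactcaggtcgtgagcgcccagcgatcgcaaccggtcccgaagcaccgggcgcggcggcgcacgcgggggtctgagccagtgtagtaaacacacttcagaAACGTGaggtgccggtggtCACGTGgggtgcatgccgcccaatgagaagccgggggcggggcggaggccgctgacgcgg
Nr1d1 (chr11:98775378-98775627, minus strand): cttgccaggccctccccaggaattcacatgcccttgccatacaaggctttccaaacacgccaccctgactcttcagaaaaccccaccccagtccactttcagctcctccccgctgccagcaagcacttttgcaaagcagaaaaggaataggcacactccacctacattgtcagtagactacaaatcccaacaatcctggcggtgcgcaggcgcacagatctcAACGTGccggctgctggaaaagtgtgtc
Per3 held 2 D-boxes, 205 and 158 bases before the start, and Cry1 held an E-box 60 bases before it and an E-prime box 79 bases before it. The Per1 window shown lies before a start site inside the gene as GENCODE annotates it, and its E-box began 166 bases before that start, and the E-prime box of Nr1d1 began 28 bases before its start. Cry2 had an E-prime box beginning at 166 bases, and the windows of Clock, Nr1d2 and Dbp held none of these letters. A match is a description of the sequence and does not show binding.

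Total counts per library ranged from 2348897 to 10152812, and the 9 genes had between 64 and 1218 counts each in a library. The guide's target Egfr had 1, 26 and 23 counts across the sgRosa libraries (replicates 1 to 3) against 6, 18 and 6 for sgEgfr. Cas9 was driven in astrocytes and the libraries were made from cells isolated as neurons, so they give no check of the knockdown. The labelled cell type was present but not pure: the 12 pan-neuronal markers summed to 1952 to 4846 CPM (counts scaled to a common library size with TMM factors) and the 8 oligodendrocyte markers to 22192 to 69725 CPM. The 7 choroid plexus markers summed to 3328 CPM in sgRosa replicate 3 and 2136 CPM in sgEgfr replicate 1, against at most 40.4 CPM in the other 4 libraries. Mitochondrial transcripts took 29.8% of the counts in sgRosa replicate 1 and 10.3% to 15.7% in the other 5. That library was the lowest of the 6 in Per1, Per2 and Cry2 and the highest in Nr1d1, and the part of the mitochondrial share in those values was not tested. Fewer cells of a type and less RNA per cell cannot be told apart in bulk libraries. No marker in these lists was called by edgeR, while 12 of 12 pan-neuronal markers had a log2 fold change above 0 (median 0.47) and 8 of 8 oligodendrocyte markers one below 0 (median -0.83). Of 7 tested inhibitory neuron markers 7 were below 0 (median -1.05), and of 7 excitatory neuron markers 7 were above 0 (median 0.86). Of 5 red blood cell markers 5 were above 0 (median 1.78, 3 with an unadjusted p under 0.05), and of 8 microglia markers 8 were above 0 (median 1.36). Of 9 astrocyte markers 8 were below 0 (median -0.18). Their sum ran from 401 CPM in sgEgfr replicate 3 to 1570 CPM in sgEgfr replicate 2. Of 7 endothelial markers 5 were below 0 (median -0.29), and their sum was highest in sgRosa replicate 1 (4252 CPM). The part of cell content in the results on clock genes was examined only by alternative fits. These used the pan-neuronal mean as a covariate, or left out both libraries high in choroid plexus markers. The labels do not state that each library is a separate animal, and the p-values may therefore reflect technical spread only.

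By edgeR's quasi-likelihood test, 0 of the 9 clock genes differed between sgEgfr and sgRosa at a Benjamini-Hochberg adjusted p of 0.05, where 0% of the 13159 tested genes did (0 of 9 clock genes at an unadjusted p under 0.05, against 6.16% of all genes). The lowest adjusted p among the 9 was 0.781 and the highest 0.964. The groups overlapped for all 9 genes, whereas they did not overlap for 13.4% of all genes tested. The log2 fold change was above 0 for 7 of the 9 and below 0 for 2, with a median of 0.10, beside 46.3% above 0 and a median of -0.04 over all tested genes. DESeq2 and limma-voom, the latter with a weight estimated for each library, also called 0 of the 9. By either tool 0 of the 9 had an unadjusted p under 0.05, against 5.98% of all genes by DESeq2 and 15% by limma-voom.

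Clock (chromosome 5, 76209868 to 76304792, minus strand, mm10), the activator that gives the loop its name, was the steadiest of the 9. Its level, with libraries always in the order of replicates 1 to 3, was 52.3, 39.3 and 43.6 CPM in sgRosa and 52.9, 48.2 and 53.8 CPM in sgEgfr. The highest library was thus 1.37 times the lowest, and the log2 fold change was 0.20 (SE 0.21, edgeR adjusted p = 0.873). It was 0.34 without sgRosa replicate 1 and 0.13 without sgRosa replicate 2. Its 95% interval ran from -0.29 to 0.68, so differences up to those bounds are compatible with these libraries.

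The Per genes encode the period proteins, the repressors that set the length of the cycle, and Per1 had the largest log2 fold change of the 9 genes. Per1 (chromosome 11, 69095217 to 69109960, plus strand, mm10) was at 19.1, 30.1 and 23.9 CPM in sgRosa and at 26.7, 45.7 and 37.8 CPM in sgEgfr. Replicates 2 and 3 of sgEgfr were above all sgRosa libraries, and sgEgfr replicate 1 lay below sgRosa replicate 2. The group means were 24.4 ± 5.49 and 36.7 ± 9.59 CPM (SD, n = 3 each), a log2 fold change of 0.60 (SE 0.28, 95% interval -0.06 to 1.25, edgeR adjusted p = 0.781, adjusted p 0.330 to 0.999 over all alternatives). Over those alternatives the log2 fold change ran from 0.30, by limma-voom, to 0.80, without sgRosa replicate 2.

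Per3 (chromosome 4, 151003652 to 151044665, minus strand) was at 139.8, 211 and 110 CPM in sgRosa and 188, 249 and 222 CPM in sgEgfr. Its order of libraries was close to that of Per1: the 4 highest were the same for both genes and in the same order, sgEgfr replicate 2, sgEgfr replicate 3, sgRosa replicate 2 and sgEgfr replicate 1. The log2 fold change was 0.52 (SE 0.30, 95% interval -0.17 to 1.22, edgeR adjusted p = 0.789). It was 0.84 without sgRosa replicate 2, 0.33 without sgRosa replicate 3, 0.85 with the pan-neuronal covariate and 0.19 by limma-voom. Per2 (chromosome 1, 91415982 to 91459324, minus strand) was at 18.0, 28.8 and 31.2 CPM in sgRosa and 25.8, 30.3 and 32.7 CPM in sgEgfr. Only sgRosa replicate 1 stood below the rest for Per2, and the log2 fold change of 0.18 (SE 0.27) was -0.0024 without that library.

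**Figure D1:**
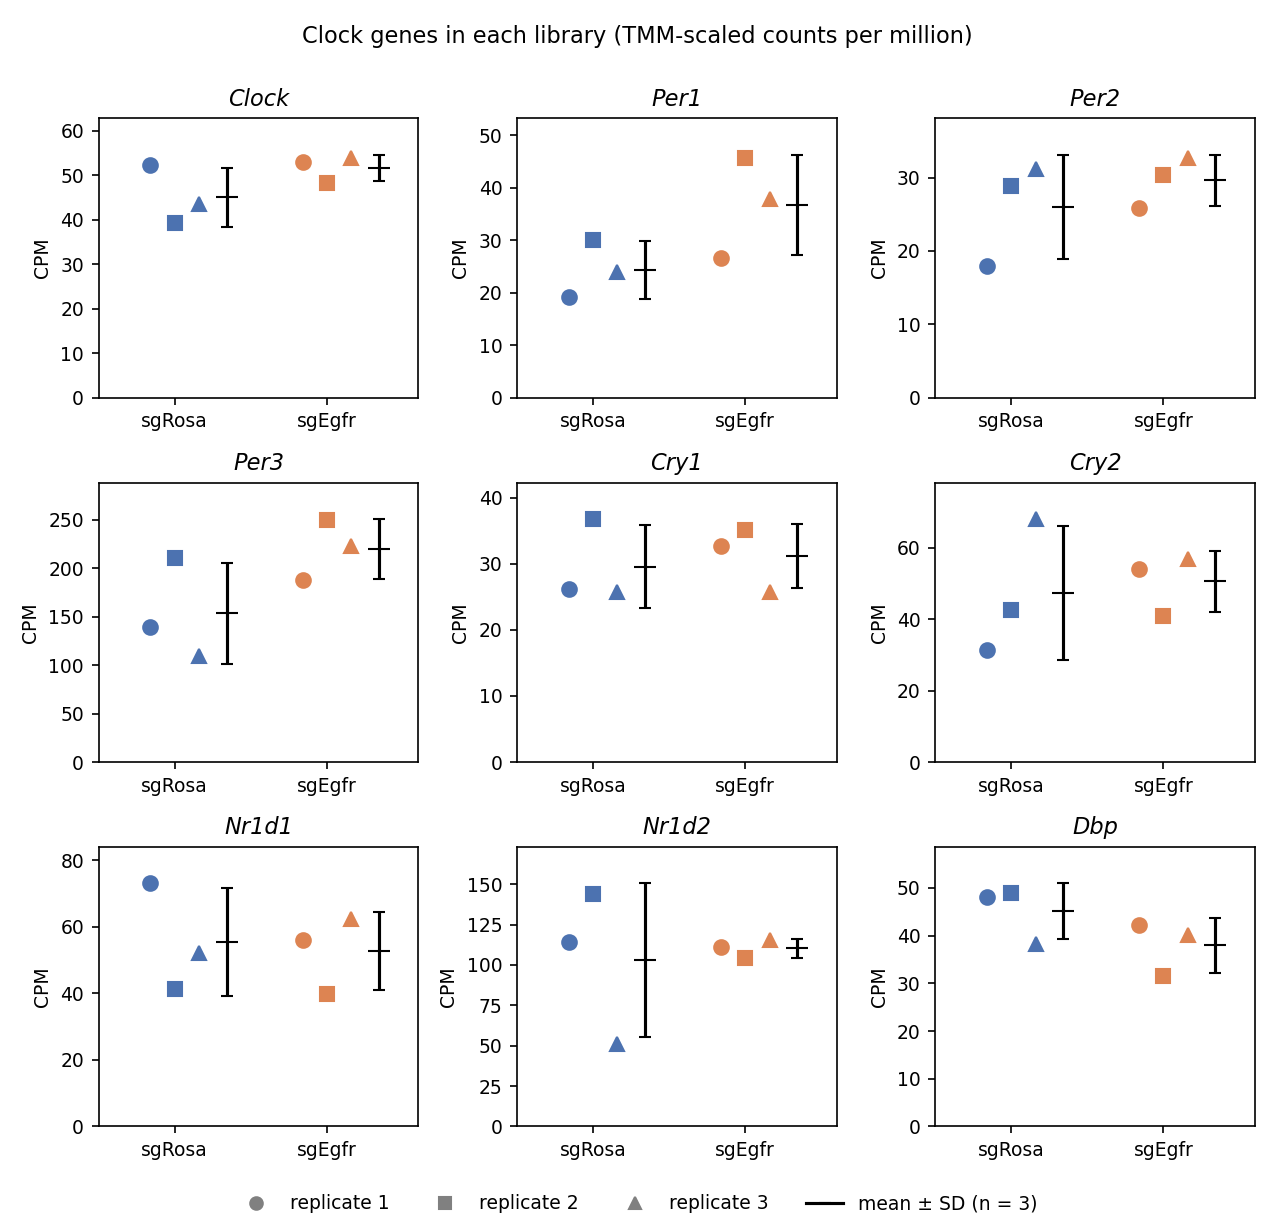
TMM-scaled CPM (vertical axes, from 0) of the 9 clock genes in each library, with sgRosa in blue, sgEgfr in orange, marker shape for the replicate number and the mean ± SD over 3 libraries in black. The groups overlap in all 9 panels; Nr1d2 has the widest range, from 50.8 CPM in sgRosa replicate 3 to 144 CPM in sgRosa replicate 2.

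Cry1 and Cry2 encode the cryptochromes, the partners of the PER proteins in repression. Cry1 (chromosome 10, 85131700 to 85185064, minus strand) was at 26.2, 36.8 and 25.7 CPM in sgRosa and at 32.6, 35.0 and 25.7 CPM in sgEgfr, with the 2 groups covering nearly the same range and a log2 fold change of 0.08 (SE 0.25). Cry2 (chromosome 2, 92403646 to 92434043, minus strand) spread more, at 31.5, 42.6 and 68.0 CPM in sgRosa and 54.0, 40.8 and 56.9 CPM in sgEgfr. The 3 libraries highest in Cry2, sgRosa replicate 3 and sgEgfr replicates 3 and 1, were also the 3 highest in the mean of the pan-neuronal markers (7.74, 7.92 and 7.63 log2 CPM, against 6.66 to 7.19 in the other 3). The log2 fold change of Cry2 was 0.09 (SE 0.32) and turned to -0.29 with the pan-neuronal mean as a covariate and to -0.11 without sgRosa replicate 1. Exons of Cry2 overlap those of the noncoding gene D930015M05Rik, on the other strand, over 295 bases.

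The nuclear receptors Nr1d1 and Nr1d2 (REV-ERB alpha and beta), which repress Arntl, differed more between libraries of one group than between groups. Nr1d1 (chromosome 11, 98767932 to 98775333, minus strand) was at 73.1, 41.3 and 52.0 CPM in sgRosa and 56.1, 39.7 and 62.3 CPM in sgEgfr, with a log2 fold change of -0.08 (SE 0.29) that turned to 0.19 without sgRosa replicate 1 and to 0.11 without sgEgfr replicate 2. Exons of Nr1d1 overlap those of Thra, a thyroid hormone receptor gene on the other strand, over 263 bases, 8.55% of the exon length. Whether counting used strand is not given in the sources used here, and without strand the reads of such a pair cannot be told apart. Nr1d2 (chromosome 14, 18204054 to 18239127, minus strand) had the widest range of the 9. It was at 114 and 144 CPM in sgRosa replicates 1 and 2, at 50.8 CPM in sgRosa replicate 3, and at 111, 104 and 116 CPM in the sgEgfr libraries.

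The 3 sgEgfr values of Nr1d2 lay close together, and the 3 sgRosa values spanned 2.83-fold. The counting interval of sgRosa replicate 3 (46.7 to 55.1 CPM, 95% exact Poisson) did not reach those of the other 5 libraries, the lowest of which began at 94.8 CPM; these intervals cover counting error only. The log2 fold change of Nr1d2 was 0.10 (SE 0.37), and it was -0.23 without sgRosa replicate 3 and 0.73 with the pan-neuronal covariate. That library was the deepest and had the highest choroid plexus sum. Without both choroid plexus libraries the log2 fold change was also -0.23. That fit leaves out sgRosa replicate 3 too, so it cannot tell choroid plexus content from anything else about that library. The other choroid plexus library, sgEgfr replicate 1, had Nr1d2 at 111 CPM. The part of depth or of choroid plexus RNA in the Nr1d2 value was not tested.

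Dbp (chromosome 7, 45705088 to 45710203, plus strand), which encodes an output transcription factor and cycles strongly in many tissues, was the gene with the lowest log2 fold change. It was at 48.1, 48.9 and 38.3 CPM in sgRosa and 42.2, 31.5 and 40.1 CPM in sgEgfr, means of 45.1 ± 5.86 and 37.9 ± 5.71 CPM. The 2 groups overlapped, and the log2 fold change was -0.25 (SE 0.22, 95% interval -0.77 to 0.27, edgeR adjusted p = 0.844). It was -0.11 without sgEgfr replicate 2 and -0.43 without both choroid plexus libraries. Exons of Dbp overlap those of Sphk2, a sphingosine kinase gene on the other strand, over 539 bases, 18.0% of the exon length.

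Levels of different genes were set side by side per kilobase of exon, with all annotated exons of a gene joined. Which transcripts were expressed was not examined, so the order depends on these lengths. The mean over 6 libraries was highest for Nr1d2 at 19.7 ± 5.65, Per3 at 19.4 ± 5.50 and Nr1d1 at 17.6 ± 4.13 CPM per kb (SD, n = 6). Then came Dbp at 13.9 ± 2.17, Cry1 at 9.08 ± 1.52 and Cry2 at 7.75 ± 2.08. The lowest of the 9 were Per1 at 5.42 ± 1.73, Per2 at 4.75 ± 0.915 and Clock at 3.52 ± 0.426. Neighbours in this order differed by less than 1 SD of the more variable of the pair, except for the steps from Dbp to Cry1, from Cry2 to Per1 and from Per2 to Clock. Arntl, the partner of Clock, was at 1.92 ± 0.808 CPM per kb, below all 9. These levels are for whole mixed libraries and not for one cell type.

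The question of whether libraries stood at different points of the daily cycle was put to 2 sets of clock genes within each library. Of the opposing set, Arntl and Npas2 peak opposite to Dbp, Clock cycles weakly, and Cry1 is driven by the same activators as the Per genes but peaks later. The mean log2 CPM of Dbp, Nr1d1, Nr1d2, Per1, Per2 and Per3 minus that of Arntl, Npas2, Clock and Cry1 was 1.37, 1.55 and 0.74 in sgRosa and 1.03, 1.42 and 1.30 in sgEgfr. The sgRosa libraries held the highest and the lowest value of the 6, with the sgEgfr libraries between them. The group means were 1.22 ± 0.43 and 1.25 ± 0.20 (SD, n = 3 each), which differ by 0.03 log2 units, less than the SD within either group. Within the Dbp, Nr1d and Per set the genes went both ways. Their log2 fold changes were 0.60 for Per1, 0.52 for Per3, 0.18 for Per2 and 0.10 for Nr1d2, but -0.25 for Dbp and -0.08 for Nr1d1. In the opposing set all log2 fold changes were positive, at 0.09 for Arntl, 0.32 for Npas2, 0.20 for Clock and 0.08 for Cry1. The small difference between the means thus sets an average of opposite signs against an opposing set that was also higher in sgEgfr. It does not show an equal phase. The contrast is a score over chosen genes and was not tested. The lowest 2 libraries, sgRosa replicate 3 and sgEgfr replicate 1, were the 2 with choroid plexus markers, and they stayed the lowest 2 without Per1 and Per2 (1.09 and 1.58) and with Clock and Cry1 alone as the opposing genes (0.42 and 0.45); the part of choroid plexus RNA in this was not tested.

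Arntl, which peaks opposite to Dbp and Nr1d1, was at 9.56, 9.61 and 22.2 CPM in sgRosa and 11.5, 11.6 and 22.2 CPM in sgEgfr. Replicate 3 of each group was thus about the same and stood apart from the other 4 libraries. These were also the 2 libraries with the highest pan-neuronal means, and choroid plexus markers were high in only 1 of them. The log2 fold change of Arntl was 0.09 (SE 0.44), and it was -0.44 with the pan-neuronal mean as a covariate, 0.63 without sgRosa replicate 3 and -0.24 without sgEgfr replicate 3. It was also below 0 without sgRosa replicate 1 (-0.10) or 2 (-0.05). Npas2, the CLOCK relative expressed in forebrain, followed Arntl only in part. It was at 11.8, 12.9 and 20.7 CPM in sgRosa and 29.4, 12.05 and 15.6 CPM in sgEgfr. The highest library was sgEgfr replicate 1, and replicate 3 of sgRosa and then of sgEgfr came next. The log2 fold change of Npas2 was 0.32 (SE 0.39), and it was -0.15 without sgEgfr replicate 1, 0.62 without sgRosa replicate 3 and -0.03 with the covariate.

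Ratios of counts within one library need no scaling between libraries. Nr1d1 to Arntl counts were 7.65 (95% exact binomial interval 5.34 to 11.3), 4.30 (2.71 to 7.10) and 2.34 (2.01 to 2.73) in sgRosa. In sgEgfr they were 4.87 (3.62 to 6.65), 3.42 (2.50 to 4.76) and 2.81 (2.06 to 3.87). Dbp to Arntl counts were 5.03 (3.46 to 7.50), 5.09 (3.23 to 8.34) and 1.72 (1.47 to 2.03) in sgRosa and 3.67 (2.70 to 5.05), 2.71 (1.96 to 3.80) and 1.81 (1.30 to 2.54) in sgEgfr. Replicate 3 was the lowest of its group for these 2 ratios, and in sgRosa its Dbp to Arntl interval lay below those of the other 2 libraries. The other ratios did not all follow this order. Per1 to Arntl counts were 2.00, 3.13 and 1.07 in sgRosa and 2.31, 3.94 and 1.70 in sgEgfr, highest in sgEgfr replicate 2. Nr1d1 to Npas2 counts were 6.19, 3.19 and 2.51 in sgRosa and 1.91, 3.30 and 4 in sgEgfr, where replicate 3 was the highest. Per3 to Clock counts were 2.67, 5.37 and 2.52 in sgRosa and 3.56, 5.18 and 4.14 in sgEgfr. The intervals cover counting error only and not the variation between animals or preparations. Dbp to Clock counts, 0.919, 1.24 and 0.880 in sgRosa and 0.798, 0.653 and 0.746 in sgEgfr, were lower in all 3 sgEgfr libraries than in any sgRosa library, and the intervals of sgRosa replicate 2 (0.941 to 1.65) and sgEgfr replicate 2 (0.524 to 0.811) did not overlap. This pair was one of 6 computed, and the difference between groups was not tested.

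**Figure D2:**
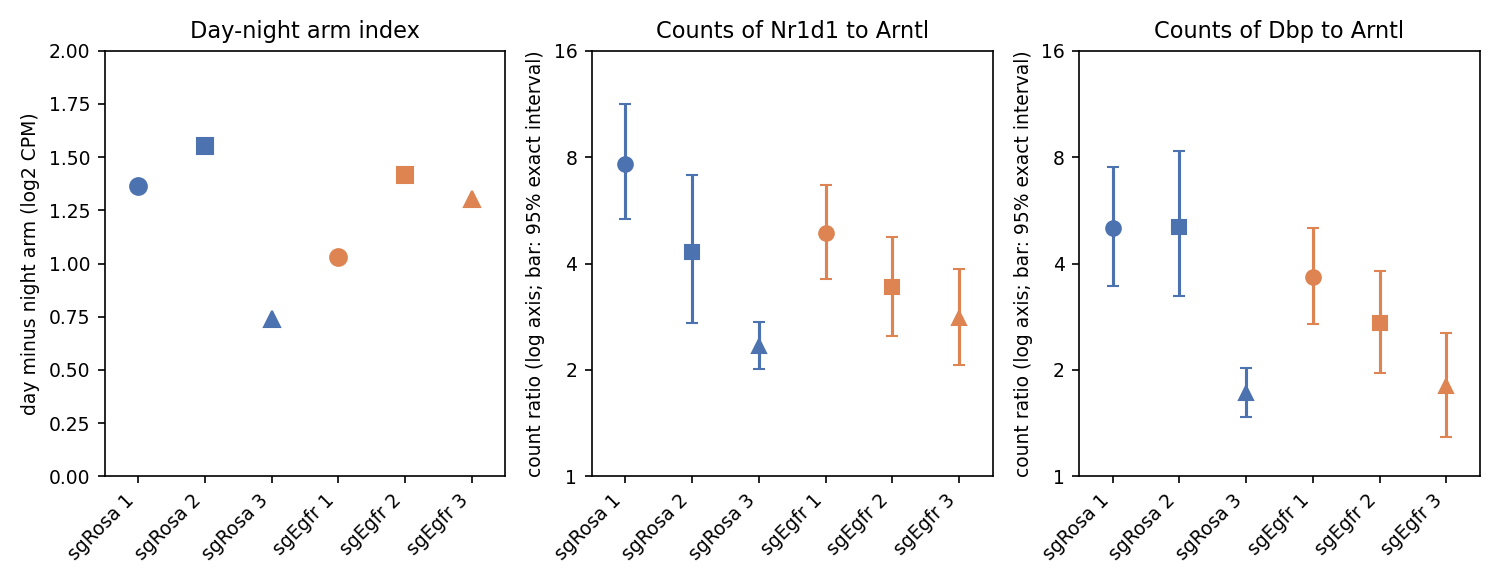
Left, the mean log2 CPM of 6 genes of the Dbp, Nr1d and Per group minus that of Arntl, Npas2, Clock and Cry1 in each library; middle and right, the ratio of Nr1d1 and of Dbp counts to Arntl counts on a log axis with 95% exact binomial intervals. In these 3 panels the sgRosa libraries (blue) hold both the highest and the lowest value. The ratios of Per1 to Arntl, Nr1d1 to Npas2 and Dbp to Clock, given in the text, differ from this.

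The spread of the 9 genes between libraries of one group was near that of other genes. The median within-group SD was 0.357 log2 CPM over the 9 and 0.412 over all tested genes, or 0.343 over the 5623 tested genes at least as abundant as the lowest of the 9. The SD of 7 of the 9 was below the median of all tested genes. Clock had the smallest at 0.158, with 6.62% of tested genes smaller still, and Dbp followed at 0.210, while Cry2 (0.432) and Nr1d2 (0.558) were above that median.

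**Figure D3:**
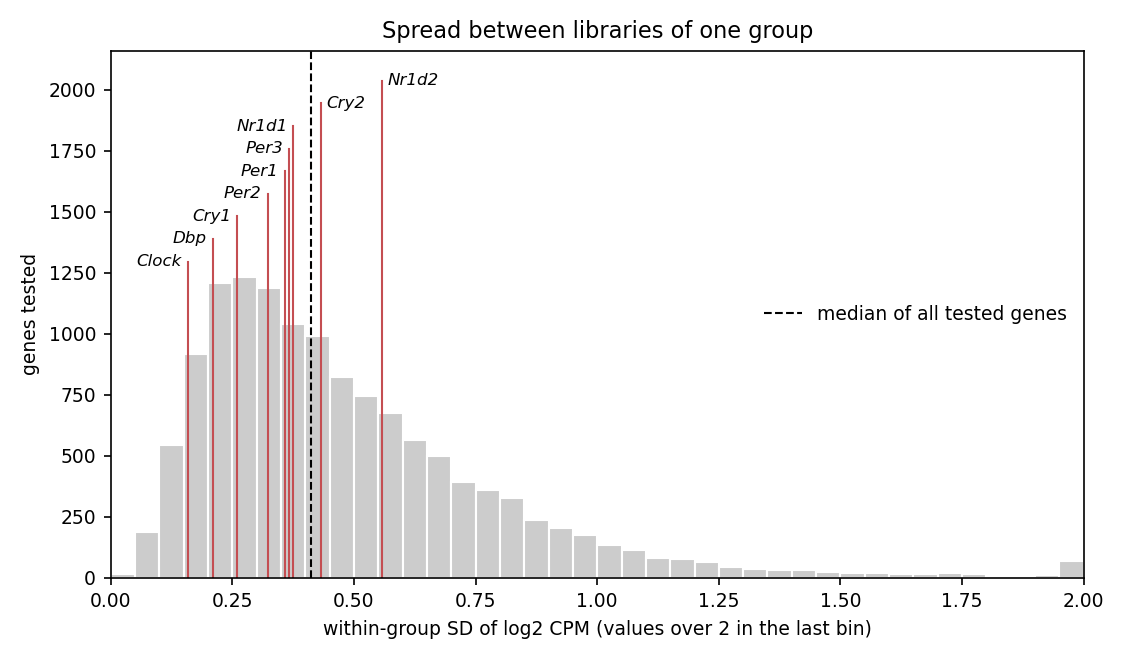
Number of tested genes (vertical axis) by their within-group SD of log2 CPM (horizontal axis, grey bars of equal width), with the median of all tested genes dashed and the 9 clock genes as red lines whose height only spaces the names. The lines of 7 genes lie left of the dashed median at 0.412 and those of Cry2 and Nr1d2 lie right of it.

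Of 27 further genes of the clock pathway 24 were tested, and 0 were called by edgeR; 4 had an unadjusted p under 0.05, all higher in sgEgfr, as 3.23% of all tested genes were. The groups did not overlap for 5 of the 24, all higher in sgEgfr, against 5.8% of all genes higher without overlap. Rora and Rorb encode the receptors that activate Arntl through the same elements at which NR1D1 and NR1D2 repress it. Rora was at 62.2, 60.1 and 70.7 CPM in sgRosa and 100.2, 94.6 and 96.2 CPM in sgEgfr, a log2 fold change of 0.59 (SE 0.20, unadjusted p = 0.0188, edgeR adjusted p = 0.781). Rorb, also a marker of cortical layer neurons, was at 19.7, 52.2 and 30.7 CPM in sgRosa and 93.2, 63.4 and 73.6 CPM in sgEgfr, a log2 fold change of 1.17 (SE 0.37, unadjusted p = 0.0131, edgeR adjusted p = 0.781).

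Gsk3b, a kinase gene with many roles whose product phosphorylates several clock proteins, was at 393, 464 and 239 CPM in sgRosa and 1076, 709 and 1004 CPM in sgEgfr. Its log2 fold change of 1.35 (SE 0.35) had an edgeR adjusted p of 0.781, and DESeq2 called it (adjusted p = 0.0418, the lowest of a range of 0.0418 to 0.999 over all alternatives) as the one clock pathway gene among its 33 calls, 0.41% of the genes with an adjusted p. Csnk2a1, a catalytic subunit of casein kinase 2, had a log2 fold change of 0.73 (SE 0.31, edgeR adjusted p = 0.781), without overlap, as had Csnk1e, a casein kinase 1 gene whose product phosphorylates PER proteins (0.32, SE 0.22, adjusted p = 0.802). With the pan-neuronal mean as a covariate the log2 fold change was 0.51 for Rora, 1.21 for Rorb, 1.63 for Gsk3b and 1.00 for Csnk2a1. Other feedback and output factors were not called and overlapped between groups: the log2 fold change was 0.41 for the repressor gene Nfil3 (SE 0.57), 0.17 for Ciart (SE 0.32), 0.0013 for Bhlhe40 (SE 0.35), -0.13 for Tef (SE 0.24) and 0.18 for Hlf (SE 0.24). The furthest from 0 of the tested genes in these lists were the feedback repressor gene Bhlhe41 (0.69, unadjusted p = 0.0927) and the output gene Tspan4 (-0.78, unadjusted p = 0.0703), which was -0.28 without sgRosa replicate 1.

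**Figure D4:**
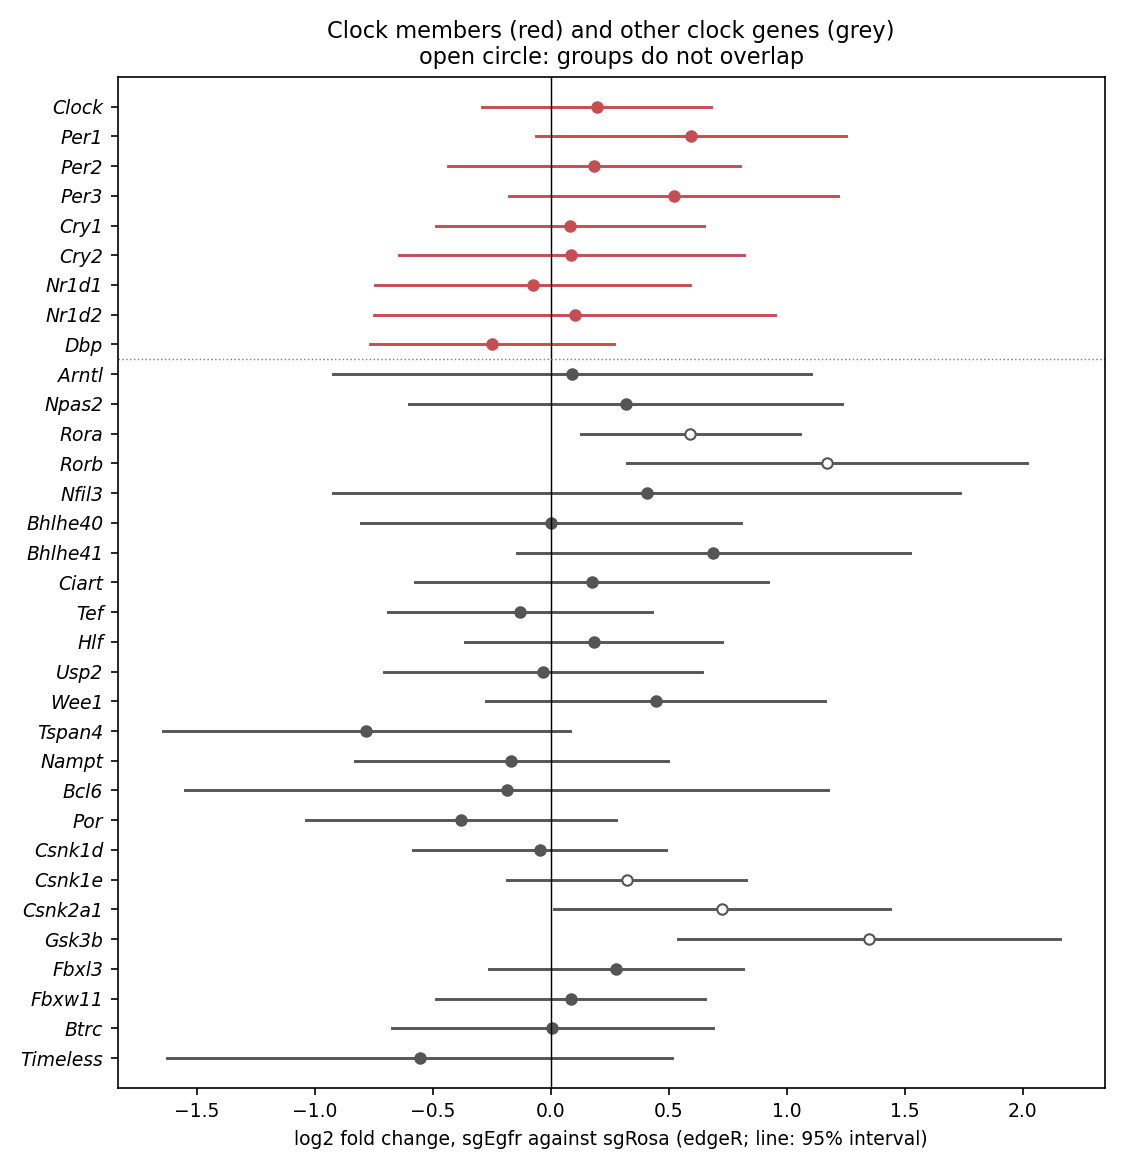
Log2 fold change of sgEgfr against sgRosa (horizontal axis) with its 95% interval from the edgeR fit for the 9 clock genes in red and 24 further tested clock pathway genes in grey; open circles mark genes whose groups do not overlap. The intervals of all 9 clock genes cross 0, and those of Rora, Rorb, Csnk2a1 and Gsk3b do not, none of which passed adjustment over all genes by edgeR.

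Per1 answers to neuronal activity and glucocorticoids as well as to the clock, so the other genes of those responses are given beside it. Of 18 immediate early genes 12 had log2 fold changes below 0 (median -0.61) and 0 were called by edgeR. Fos was at 667, 675 and 157 CPM in sgRosa and 147, 322 and 127 CPM in sgEgfr (log2 fold change -1.33, SE 0.60, edgeR adjusted p = 0.781), the opposite sign to Per1, and its log2 fold change was -0.10 with the pan-neuronal covariate. Of 12 glucocorticoid receptor genes and targets 9 were above 0 (median 0.30) and 0 were called. Zbtb16 was at 21.1, 48.5 and 41.7 CPM in sgRosa and 71.7, 85.5 and 79.5 CPM in sgEgfr (log2 fold change 1.09, SE 0.32, adjusted p = 0.781), without overlap, while Fkbp5, a widely used glucocorticoid target, had 0.29 (SE 0.38). The summed CPM of the glucocorticoid list was highest in sgEgfr replicate 2 (1656), sgRosa replicate 2 (1473) and sgEgfr replicate 3 (1322). The same 3 libraries were highest in Per1 and in Per3. They were also highest, in the order just given, in the sum of the feedback repressor genes Nfil3, Bhlhe40, Bhlhe41 and Ciart (826, 662 and 591 CPM). The match is thus not particular to the glucocorticoid list, and the part of that response in the Per values was not tested.

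The genes with profiles most like those of the 2 widest-ranging clock genes were looked for among 10021 tested genes, by the root-mean-square distance between log2 CPM profiles standardized over the 6 libraries, where 0 is identical. For Nr1d2 these were Zcchc8 (0.169), Trak2 (0.174) and Mettl4 (0.175), against a median distance of 1.47, and the nearest other clock gene was Per3 at 0.737. For Per1 these were Stc1 (0.122), Akap12 (0.155) and Pou3f2 (0.168), against a median of 1.42. Per3 was the nearest clock gene to Per1 at 0.582, with 234 genes nearer, while Nr1d1 and Dbp, at 1.80 and 1.84, were farther from Per1 than the median gene. With 6 libraries, close profiles are common among so many genes.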

How the data were processed

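The authors deposited raw counts per gene, without normalization, in 1 file per library (6 in all) and again in 1 joint file with identical values, of which 3 more columns matched no sample and were not used. Build mm10, the aligner STAR 2.7.5c, the counter featureCounts 2.0.1, the trimmer fastp 0.23.2 and edgeR 3.42.4 are named in the submitters' processing notes. The annotation, options and use of strand are not given in the sources used here. Libraries were made from 5 ng of RNA, per the labels' protocols, without mention of molecular identifiers. The counting intervals cover counting error at most, and may be too narrow where copies of the same molecule were counted separately.

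Genes passing edgeR's filterByExpr (minimum count 10, minimum total 15) were scaled by TMM and tested by robust quasi-likelihood in edgeR 4.0.16 under R 4.3.3, with Benjamini-Hochberg adjustment over all tested genes at 0.05. The SE is the size of the log2 fold change divided by the root of F, and intervals use the fit's moderated degrees of freedom. Log2 CPM used a prior count of 2. The fit was tested on simulated counts for 12909 genes, all with the same dispersion. It recovered 7.46% of genes changed 2-fold and 86.6% of those changed 4-fold. Alternatives were scaling by library size, RLE or upper quartile, a stricter filter or none, DESeq2 1.42.0 and limma-voom (limma 3.58.1). Others were a replicate block, a pan-neuronal covariate and left-out libraries. The limma-voom fit estimated a quality weight for each library, so it differs from edgeR in that as well. The legacy quasi-likelihood fit and the count ratios were added after seeing the data. Positions and exon lengths are from GENCODE M21 (GRCm38, the assembly mm10 names). Between any pair of libraries of one group the counts differed by a chi-square of at least 10.4 per degree of freedom, so all 6 were counted as different libraries.

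The clock genes, the other lists and the tests were chosen with earlier results of these data known. The genes named are the 9 clock genes, 11 others set by name, up to 4 further genes of a list by smallest p, of which some are left out, and the 3 most similar profiles for the 2 genes of widest range; Csnk1e and Bhlhe41 were named after their values were seen.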

Additional observations from a re-analysis of the deposited data

How the results depend on the processing

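None of the 9 clock genes was called in the main test or in the 17 alternatives, and the lowest adjusted p was 0.330, for Per1 without sgRosa replicate 3. An unadjusted edgeR p under 0.05 was reached by 1 of the 9 with the replicate block (1316 of 13159 genes over all). With the pan-neuronal covariate 1 did (1508 of 13159). Without sgRosa replicate 2 it was 2 (804 of 13491), and without sgEgfr replicate 1 it was 1 (385 of 13530). None did in the other alternatives. The counts of genes called over all genes and among the further clock genes were 0 in every alternative except DESeq2, which called 33 and 1. Of 153 values of the clock genes under alternatives, 141 kept their sign. Those of Clock, Per1, Per3 and Dbp did so in all 17. The 12 that turned sign were Per2 without sgRosa replicate 1 (-0.0024); Cry1 by limma-voom (-0.044), without sgRosa replicate 3 (-0.0086) and without both choroid plexus libraries (-0.037); Cry2 with the pan-neuronal covariate (-0.29) and without sgRosa replicate 1 (-0.11); Nr1d1 by limma-voom (0.15) and on leaving out sgRosa replicate 1 (0.19) or sgEgfr replicate 2 (0.11); and Nr1d2 by limma-voom (-0.17), without sgRosa replicate 3 (-0.23) and without both choroid plexus libraries (-0.23). The cause was not tested. With single libraries left out, the highest values were 0.34 for Per2, 0.29 for Cry1, 0.45 for Cry2 and 0.42 for Nr1d2. The group difference in the contrast of the 2 sets of clock genes was -0.21 at its lowest (sgRosa replicate 3 left out) and 0.20 at its highest (sgRosa replicate 2 left out), and -0.10 without both choroid plexus libraries; all moved by less than 1 SD between libraries (0.333). The median spread of the 9 genes was 0.361 with a prior count of 0.5. With a replicate block 0 genes and 0 clock genes were called. Same-numbered libraries deviated together in pairs 2 and 3 (correlations 0.478 and 0.279) and not in pair 1 (-0.0311), and 4 of 6 libraries correlated best with their own number, so the numbers were not taken to pair the libraries. In counts simulated with the same biological coefficient of variation (0.355) for all genes, 7.46% of 2-fold changes were called. Most changes of that size were thus missed in that setting. The fitted coefficient of Per1 was lower (0.279) and its fold smaller (1.51), so the share that would be called for Per1 was not measured.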
